A study of Mus musculus with 9 samples.

Results

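The 9 genes described here, Ms4a1, Cd37, Cr2, Cd55, Fcer2a, Cd72, Cxcr5, Ccr7 and Cd83, encode surface proteins of mature B cells. They were taken by symbol from the 46958 genes of a table of RNA-seq read counts, each symbol occurring once, and all 9 passed the filter on low counts. The RNA came from plasma cells of the spleen, isolated with magnetic beads against CD138, a surface proteoglycan of plasma cells, to a stated purity above 80%. The mice were 3 months old, had not been immunized and were of a mixed C57/BL6x129/SVxBALB/c background. Each of the 9 libraries held the cells of 1 spleen, and there were 3 mice for each of the 3 genotypes, named WT, DH-LMP2A and kFRA (LCDD). LCDD is light chain deposition disease, in which a monoclonal immunoglobulin light chain accumulates in tissues, and the study concerned the effect of such a light chain on the plasma cells that make it. LMP2A is a membrane protein of the Epstein-Barr virus that signals in B cells much like an antigen receptor. The labels describe neither allele further and do not say which promoter drives either transgene or whether the kFRA and DH-LMP2A mice share an allele. Levels are given in CPM, for which counts are divided by the total count of the library times its TMM scaling factor. The CPM of different libraries therefore do not sum to the same total. Ighm, the constant region gene of IgM, lay at 154250 to 184340 CPM in the WT libraries, at 9366 to 10028 CPM in the DH-LMP2A libraries and at 6981 to 10469 CPM in the kFRA libraries, so the groups differed from WT in this RNA as well.

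A mature B cell carries at its surface the antigen receptor together with proteins that tune its signal, sense complement-coated antigen or IgE, and steer the cell into the follicles of the spleen. When a B cell becomes a plasma cell, the repressor Blimp-1 and the fall of Pax5 switch most of these genes off, while genes of antibody secretion are switched on. RNA of B cell receptors in a plasma cell preparation can therefore come from plasma cells that still express them, from plasmablasts or from B cells carried along. In bulk RNA, fewer cells of a type and less RNA per cell cannot be told apart.

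The total count per library ranged from 15449026 to 21558128, and 3 counts corresponded to 0.139 to 0.194 CPM before TMM scaling. Sdc1, which encodes CD138, lay at 302 to 537 CPM in the WT libraries, at 479 to 667 CPM in the DH-LMP2A libraries and at 509 to 693 CPM in the kFRA libraries and passed the test in no comparison. Within genotypes, kFRA replicate 2 and DH-LMP2A replicate 3 stood apart. The counts of DH-LMP2A replicate 3 differed from those of the other two libraries with a chi-square per degree of freedom of 65.4 and 66.7, against 18.8 between those. For kFRA replicate 2 the values were 105 and 151, against 19.7, and the 3 WT pairs lay at 118 to 179. Both libraries also differed from the rest of their genotype in the sex-linked gene Xist, as did WT replicate 2. It measured 4.48 CPM in DH-LMP2A replicate 3 against 882 and 924 CPM, 734 CPM in kFRA replicate 2 against 1.30 and 3.14 CPM, and 0.459 CPM in WT replicate 2 against 783 and 495 CPM. Ddx3y, a gene of the Y chromosome, measured 43.5 CPM in WT replicate 2 and 55.8 CPM in DH-LMP2A replicate 3. In kFRA replicates 1 and 3 it measured 50.2 and 40.8 CPM, and it had no counts in the other libraries. By these genes each genotype mixed the sexes. Leaving out kFRA replicate 2 or DH-LMP2A replicate 3 left that genotype with a single sex. The part of sex in such fits was not tested. Outside covariate fits, results that rest on either of these 2 libraries are given with and without it.

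In the comparison of kFRA with WT, 6 of the 9 genes fell and none rose by edgeR's quasi-likelihood test with Benjamini-Hochberg adjustment over all 14199 genes tested, at an adjusted p under 0.05. The genes were Cr2, Cd55, Fcer2a, Cd72, Cxcr5 and Ccr7, and the background was 11.1% of all genes called lower and 6.68% called higher. In 7 of the 9 genes, those 6 and Cd83, every kFRA library lay below every WT library, as it did for 20.2% of all genes. The kFRA calls depended on single libraries: over the 6 fits that each left out 1 library of the groups compared, Cd72 was called in 6, Cxcr5 in 4 and Cr2, Cd55, Fcer2a and Ccr7 in 2 each. Those 4 genes stayed past the threshold without kFRA replicate 2 or WT replicate 3 and fell short of it without any one of the other 4 libraries. In the comparison of DH-LMP2A with WT the genes divided: Ms4a1 and Cr2 rose, Cd72 fell and 6 did not pass the test, where 5.07% of all genes were called higher and 7.3% lower. The libraries did not overlap for 2 higher and 2 lower genes of the 9, against 17.5% higher and 19.1% lower among all genes. In kFRA against DH-LMP2A, Ms4a1, Cr2 and Cd55 fell, 3 of the 9, where 3.3% of all genes were called lower and 1.73% higher, and 4 of the 9 had every kFRA library below every DH-LMP2A library, against 13.9%. The median log2 fold change of the 9 genes was -1.32 in kFRA against WT, -0.84 in DH-LMP2A against WT and -1.22 in kFRA against DH-LMP2A, beside medians over all genes of -0.04, -0.01 and 0.00 to 2 decimals. Each pair of these comparisons shares a group of libraries, so their values are given side by side and not as separate evidence. The p-values rest on separate mice and measure the spread between them.

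**Figure D1:**
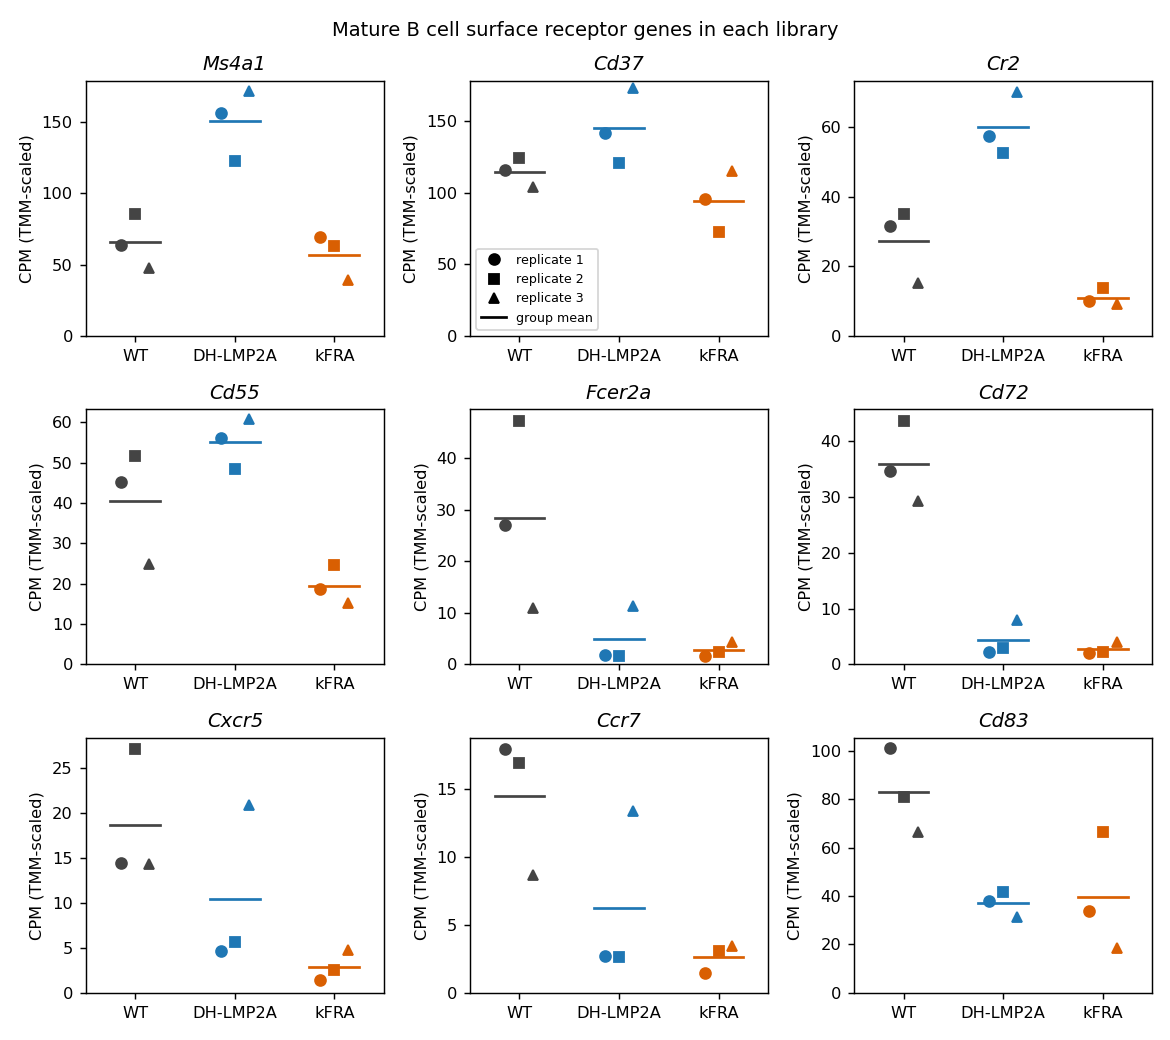
CPM (TMM-scaled, linear axes from 0) of the 9 receptor genes in each of the 9 libraries, with circles, squares and triangles for replicates 1, 2 and 3 and a line at each group mean. Ms4a1 and Cr2 were highest in the 3 DH-LMP2A libraries, whereas Cd72 lay at 29.4 CPM or more in the WT libraries and at 7.92 CPM or less in the other 6.

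Ms4a1 encodes CD20, a protein that spans the membrane 4 times and is carried by B cells from the late precursor stage until plasma cell differentiation. The gene lies at chr19:11249675-11266241 on the minus strand of GRCm38, the build of all coordinates given here. Its RNA measured 64.0, 85.4 and 48.0 CPM in the WT libraries, 156, 123 and 172 CPM in the DH-LMP2A libraries and 69.3, 62.8 and 39.1 CPM in the kFRA libraries. All DH-LMP2A libraries lay above all others, and the WT and kFRA libraries overlapped. Group means were 65.8 ± 18.7 CPM for WT, 150.5 ± 25.1 CPM for DH-LMP2A and 57.1 ± 15.9 CPM for kFRA (SD, n = 3 each). Ms4a1 rose 2.29-fold in DH-LMP2A against WT (log2 fold change 1.19, SE 0.26, adjusted p = 0.0182, edgeR) and was 2.64-fold lower in kFRA than in DH-LMP2A (-1.40, SE 0.27, adjusted p = 0.0169, edgeR). Against WT, the kFRA value of -0.21 (SE 0.26) did not pass edgeR's test (adjusted p = 0.595). The rise in DH-LMP2A passed the test in 3 of the 6 fits that left out 1 library of the groups compared, with log2 fold changes from 1.01 to 1.43. The fall in kFRA against DH-LMP2A passed in 5 of 6, and without DH-LMP2A replicate 1 it was -1.32 (adjusted p = 0.0640, edgeR).

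Cd37 encodes a tetraspanin, one of a family of proteins that also span the membrane 4 times and organize receptors into membrane domains, and it restrains IgA responses in mice. It lies at chr7:45233632-45239115 on the minus strand. Its RNA measured 116, 124 and 104 CPM in WT, 142, 121 and 173 CPM in DH-LMP2A and 95.7, 72.9 and 115 CPM in kFRA, with WT overlapping both other genotypes. Of the 9 genes it varied least: its group means were 114.8 ± 10.1, 145.4 ± 26.3 and 94.6 ± 21.1 CPM (SD, n = 3 each). In kFRA against DH-LMP2A every library was lower, at a log2 fold change of -0.62 (SE 0.19), and the adjusted p of 0.108 (edgeR) missed the threshold. Cd37 shares exon positions with Tead2 on the other strand. Since the strand setting of the counting is not stated, values of such genes are uncertain, and Tead2 itself measured at most 0.31 CPM in any library.

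Cr2 encodes complement receptors 2 and 1 (CD21 and CD35), which bind fragments of complement C3 on antigen and, in a coreceptor complex with CD81, lower the amount of antigen needed to activate a B cell. It is expressed by follicular B cells, more strongly by marginal zone B cells, and by follicular dendritic cells. The gene lies at chr1:195136811-195176716 on the minus strand. Its RNA measured 31.7, 35.0 and 15.4 CPM in WT, 57.5, 52.6 and 70.2 CPM in DH-LMP2A and 10.1, 13.7 and 9.10 CPM in kFRA. The 3 genotypes were fully separated, DH-LMP2A highest and kFRA lowest. Group means were 27.3 ± 10.5, 60.1 ± 9.07 and 10.96 ± 2.39 CPM (SD, n = 3 each). Cr2 rose 2.19-fold in DH-LMP2A against WT (log2 fold change 1.13, SE 0.29, adjusted p = 0.0316, edgeR) and fell 2.49-fold in kFRA against WT (-1.32, SE 0.29, adjusted p = 0.0159, edgeR). Between kFRA and DH-LMP2A the difference was 5.47-fold (log2 fold change -2.45, SE 0.30, adjusted p = 0.00126, edgeR). This last call was kept in all 17 alternative analyses. The fall in kFRA against WT ran from -1.60 to -1.10 when 1 library was left out, with edgeR's adjusted p up to 0.0649, and the rise in DH-LMP2A passed in 3 of 6 such fits. The rise in DH-LMP2A against WT was 1.02 without DH-LMP2A replicate 3, where edgeR's adjusted p was 0.0722.

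Cd55 encodes decay-accelerating factor, which protects cells from complement by dismantling C3 convertases. It lies at chr1:130439027-130462744 on the minus strand. Its RNA measured 45.2, 51.6 and 24.8 CPM in WT, 56.0, 48.4 and 60.9 CPM in DH-LMP2A and 18.7, 24.6 and 15.2 CPM in kFRA. The kFRA libraries lay below all others, the highest of them, replicate 2, only just below WT replicate 3. Cd55 fell 2.07-fold in kFRA against WT (log2 fold change -1.05, SE 0.27, adjusted p = 0.0280, edgeR) and 2.82-fold in kFRA against DH-LMP2A (-1.49, SE 0.27, adjusted p = 0.0141, edgeR), while DH-LMP2A against WT gave 0.44 (SE 0.27) and did not pass the test (adjusted p = 0.340, edgeR). When 1 library was left out, the fall against WT ran from -1.31 to -0.84 with edgeR's adjusted p up to 0.106. The fall against DH-LMP2A passed in 4 of 6 such fits and missed without kFRA replicate 1 or 3 (adjusted p = 0.0724 and 0.0599, edgeR). Scaled by library size alone, the kFRA value against WT was -0.84 with an adjusted p of 0.135, and that of Cr2 -1.11 with 0.0663 (edgeR). The neighbouring copy Cd55b measured at most 0.51 CPM, and reads shared between such copies could be split by the counting. Gm16083, which overlaps Cd55 exons on the other strand, measured at most 0.06 CPM.

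In a list of 8 tested genes, made of partners of Cr2 in its coreceptor complex, other complement receptors and regulators and the complement components C3 and C4b, 1 rose and 1 fell in kFRA against WT, 3 rose and 1 fell in DH-LMP2A against WT, and none was called between kFRA and DH-LMP2A (5 at an unadjusted p under 0.05 and 1 by DESeq2). The genes that rose in DH-LMP2A were Cd59a and Cd59b, which encode inhibitors of the membrane attack complex, and Cr1l, which encodes the rodent regulator Crry and measured 80.0 to 95.4 CPM in WT and 137 to 166 CPM in DH-LMP2A. Cd59a also rose in kFRA against WT, with log2 fold changes of 1.53 (adjusted p = 0.00321, edgeR) there and 2.27 (adjusted p = 0.000412, edgeR) in DH-LMP2A. The genes that fell were the components: C3, which is also counted among the ligands, in kFRA against WT (-2.59, adjusted p = 0.0357, edgeR) and C4b in DH-LMP2A against WT (-3.43, adjusted p = 0.00480, edgeR). Cd81, a direct partner of Cr2, passed the test in no comparison.

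Fcer2a encodes CD23, the low-affinity receptor for IgE, a C-type lectin that is abundant on follicular B cells and low on marginal zone B cells. It lies at chr8:3681737-3694174 on the minus strand. Its RNA measured 27.1, 47.2 and 10.95 CPM in WT, 1.90, 1.58 and 11.3 CPM in DH-LMP2A and 1.71, 2.47 and 4.33 CPM in kFRA. All kFRA libraries were below all WT libraries, and DH-LMP2A replicate 3 lay just above WT replicate 3 while the other two DH-LMP2A libraries were near the kFRA level. Fcer2a fell by 3.32 on the log2 scale in kFRA against WT (SE 0.83, adjusted p = 0.0242, edgeR), with values from -3.74 to -2.75 and edgeR's adjusted p up to 0.0939 when 1 library was left out. In DH-LMP2A against WT its value was -2.53 (SE 0.78, adjusted p = 0.0683, edgeR). Without DH-LMP2A replicate 3 it was -4.01 (SE 0.65, adjusted p = 0.00660, edgeR). Fcer2a in that library was 6.52 times the mean of the other two.

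Cd72 encodes another C-type lectin, an inhibitory coreceptor that recruits the phosphatase SHP-1 and whose ligand is the semaphorin CD100. It lies at chr4:43446462-43454628 on the minus strand. Its RNA measured 34.7, 43.6 and 29.4 CPM in WT, 2.20, 3.02 and 7.92 CPM in DH-LMP2A and 2.12, 2.14 and 4.08 CPM in kFRA. Both groups lay far below WT with no overlap, and they overlapped each other. Group means were 35.9 ± 7.20, 4.38 ± 3.09 and 2.78 ± 1.12 CPM (SD, n = 3 each). Cd72 fell 12.9-fold in kFRA against WT (log2 fold change -3.69, SE 0.49, adjusted p = 0.00106, edgeR) and 8.21-fold in DH-LMP2A against WT (-3.04, SE 0.46, adjusted p = 0.00307, edgeR). The difference between kFRA and DH-LMP2A, -0.66 (SE 0.47), did not pass edgeR's test (adjusted p = 0.429). Both falls passed the test in all 6 fits that left out 1 library. Cd72 shares exon positions with Tesk1 on the other strand, and Tesk1 measured 26.8 to 30.3 CPM in every library.

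The promoters of Cr2 and Cd55, which were lower in kFRA than in DH-LMP2A, and of Fcer2a and Cd72, whose kFRA and DH-LMP2A levels overlapped, are shown because these pairs carry the contrast between the genotypes. Sequences come from RefSeq on GRCm38.p6 and cover up to 250 bases before the gene's start, on the minus strand, with positions counted back from -1 at the base before the RefSeq start. Bases that lie within the gene's own span in the count table were left out, so the Fcer2a and Cd72 windows end 1 and 2 bases short of that start. In all, 5 of the 9 genes had an entry in the promoter table: these 4 and Cd37. Ms4a1, Cxcr5, Ccr7 and Cd83 are named only. Capitals mark matches, on either strand, to 5 short motifs: the octamer ATGCAAAT, the EBF1 core CCCNNGGG, the PU.1 motif GAGGAA, the E-box CAGGTG and the kappaB core GGANNTTCC.
Cr2, chr1:195176720-195176969: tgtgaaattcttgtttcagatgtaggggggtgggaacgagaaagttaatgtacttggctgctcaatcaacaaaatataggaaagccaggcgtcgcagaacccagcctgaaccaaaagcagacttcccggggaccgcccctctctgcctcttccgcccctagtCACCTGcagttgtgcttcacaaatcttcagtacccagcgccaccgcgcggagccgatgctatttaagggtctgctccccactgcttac
Cd55, chr1:130462745-130462994: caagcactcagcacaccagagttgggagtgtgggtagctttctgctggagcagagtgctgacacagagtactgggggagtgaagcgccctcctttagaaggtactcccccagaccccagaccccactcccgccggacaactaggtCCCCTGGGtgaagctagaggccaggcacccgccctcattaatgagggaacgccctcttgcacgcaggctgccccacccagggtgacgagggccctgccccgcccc
Fcer2a, chr8:3694176-3694424: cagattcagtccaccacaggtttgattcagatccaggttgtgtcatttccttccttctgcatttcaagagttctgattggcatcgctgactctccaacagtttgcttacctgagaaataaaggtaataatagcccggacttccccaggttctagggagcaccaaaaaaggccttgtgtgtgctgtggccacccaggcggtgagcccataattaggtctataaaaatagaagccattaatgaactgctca
Cd72, chr4:43454629-43454876: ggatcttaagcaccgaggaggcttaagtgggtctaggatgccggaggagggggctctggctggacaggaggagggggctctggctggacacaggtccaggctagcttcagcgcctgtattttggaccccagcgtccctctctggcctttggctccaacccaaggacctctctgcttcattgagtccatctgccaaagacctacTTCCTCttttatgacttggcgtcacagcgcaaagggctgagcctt
The Cr2 window held an E-box at -88 to -83, the Cd55 window an EBF1 core at -105 to -98 and the Cd72 window a PU.1 motif at -47 to -42, none overlapping another motif. No match to the 5 motifs was found in the Fcer2a window shown. Fcer2a has 2 further entries whose starts lie inside the gene, not printed here, and between them these held E-boxes at -244 to -239 and -99 to -94 from their own starts. Among 32851 promoters of the same table, each taken with the 50 bases after the start as well, 20.2% held the E-box, 13.7% the EBF1 core and 28.3% the PU.1 motif, and the octamer and the kappaB core were in 1.74% and 4.26%. A match describes the letters only, and a window without one says nothing about the factor.

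Of 6 tested genes for ligands of these receptors, 4 fell in kFRA against WT and 2 in DH-LMP2A against WT, and none rose. Between kFRA and DH-LMP2A none was called by edgeR, with 2 at an unadjusted p under 0.05, and 2 fell by DESeq2. Sema4d, which encodes the Cd72 ligand CD100, measured 68.8, 83.5 and 79.8 CPM in WT, 39.6, 44.8 and 56.8 CPM in DH-LMP2A and 29.3, 36.5 and 26.7 CPM in kFRA. It fell in both groups against WT with log2 fold changes of -1.33 in kFRA (adjusted p = 0.00114, edgeR) and -0.72 in DH-LMP2A (adjusted p = 0.0261, edgeR). Adgre5, which encodes the Cd55 ligand CD97, fell in kFRA against WT (-1.21, adjusted p = 0.00435, edgeR), as did C3, the source of the Cr2 ligands. Ighe, the constant region gene of the IgE that Fcer2a binds, measured 9.37 to 137 CPM in WT and at most 0.31 CPM in the other 6 libraries. Cxcl13 and Ccl21a, ligands of Cxcr5 and Ccr7 made by stromal cells, stayed below 1 CPM in every library.

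Cxcr5 encodes the receptor for CXCL13 that brings B cells into follicles. It lies at chr9:44511788-44556391 on the minus strand. Its RNA measured 14.5, 27.1 and 14.3 CPM in WT, 4.70, 5.66 and 20.96 CPM in DH-LMP2A and 1.44, 2.57 and 4.77 CPM in kFRA. The kFRA libraries were below all WT libraries, and DH-LMP2A replicate 3 lay within the WT range, the other two DH-LMP2A libraries below it. Cxcr5 fell 6.36-fold in kFRA against WT (log2 fold change -2.67, SE 0.64, adjusted p = 0.0213, edgeR). Without kFRA replicate 1 or WT replicate 2 it missed the threshold (adjusted p = 0.0804 and 0.0753, edgeR). In DH-LMP2A against WT the value was -0.84 (SE 0.59, adjusted p = 0.424, edgeR), and without DH-LMP2A replicate 3 it was -1.84 (SE 0.47, adjusted p = 0.0407, edgeR). Bcl9l, which shares exon positions with Cxcr5 on the other strand, measured 10.3 to 17.3 CPM in WT, 5.97 to 8.92 CPM in DH-LMP2A and 4.24 to 11.5 CPM in kFRA, and passed edgeR's test in neither group against WT (adjusted p = 0.0832 for kFRA and 0.0878 for DH-LMP2A). Its kFRA libraries overlapped WT and its DH-LMP2A libraries lay below WT, and its part in the Cxcr5 counts was not tested.

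Ccr7 encodes the receptor for CCL19 and CCL21, which draws lymphocytes to the T cell zone and activated B cells to its border. It lies at chr11:99144196-99155077 on the minus strand. Its RNA measured 17.9, 16.9 and 8.66 CPM in WT, 2.71, 2.64 and 13.4 CPM in DH-LMP2A and 1.44, 3.09 and 3.45 CPM in kFRA. The pattern was that of Cxcr5: kFRA below WT throughout, and DH-LMP2A replicate 3 apart from its group at 5.01 times the mean of the other two. Ccr7 fell 5.42-fold in kFRA against WT (log2 fold change -2.44, SE 0.66, adjusted p = 0.0337, edgeR), with values from -2.70 to -2.15 and edgeR's adjusted p up to 0.117 when 1 library was left out. In DH-LMP2A against WT the value was -1.22 (SE 0.62, adjusted p = 0.254, edgeR), and without DH-LMP2A replicate 3 it was -2.43 (SE 0.42, adjusted p = 0.00904, edgeR).

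Among 11 other lymphoid chemokine and egress receptors, 1 rose and 6 fell in kFRA against WT, 1 rose and 2 fell in DH-LMP2A against WT, and 2 fell in kFRA against DH-LMP2A. Cxcr3, a receptor for interferon-induced chemokines on activated lymphocytes, fell in both groups against WT, with log2 fold changes of -4.20 in kFRA (adjusted p = 0.000185, edgeR) and -4.65 in DH-LMP2A (adjusted p = 0.00016, edgeR). Ackr3, a scavenging receptor for CXCL12, rose in both, by 2.85 and 2.83 (adjusted p = 0.000975 and 0.00134, edgeR). S1pr1, the receptor of lymphocyte egress, was among the genes that fell in kFRA against DH-LMP2A, by 1.79 on the log2 scale (adjusted p = 0.00831, edgeR). Cxcr4, the receptor that holds plasma cells in their niche, passed the test in no comparison.

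Cd83 encodes an immunoglobulin-family protein that stabilizes MHC class II and CD86 at the surface and is induced on activated B cells and dendritic cells. It lies at chr13:43785107-43803130 on the plus strand. Its RNA measured 101, 81.1 and 66.6 CPM in WT, 38.0, 41.9 and 31.5 CPM in DH-LMP2A and 33.9, 66.5 and 18.4 CPM in kFRA. Every WT library was above every other library, although kFRA replicate 2 lay just below WT replicate 3. Neither fold change passed edgeR's test: -1.06 in kFRA against WT (SE 0.39, adjusted p = 0.0849) and -1.16 in DH-LMP2A against WT (SE 0.39, adjusted p = 0.0852). Without kFRA replicate 2, in which Cd83 was 2.54 times the mean of the other two, the kFRA value was -1.60 and passed (SE 0.28, adjusted p = 0.00448, edgeR). That fit called 5632 genes, the most of the fits of kFRA against WT that left out 1 library, so the call is not particular to Cd83. In DH-LMP2A against WT, Cd83 passed the Wald test of DESeq2 at an adjusted p of 0.0179.

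**Figure D2:**
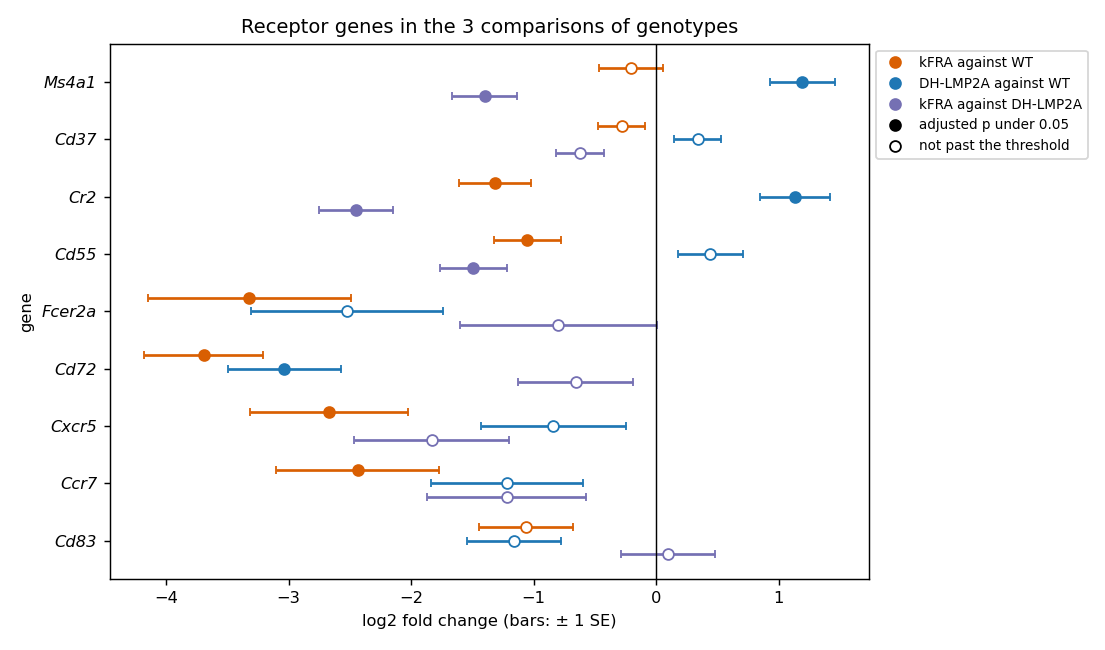
Log2 fold changes of the 9 receptor genes in the 3 comparisons of genotypes, from the edgeR fit to all 9 libraries, with bars of ± 1 SE and filled symbols for adjusted p under 0.05. Cr2 was at -1.32 in kFRA and at 1.13 in DH-LMP2A against WT, whereas Cd72 was at -3.69 and -3.04.

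Levels of different genes were compared as CPM per kilobase of exon. In WT, Cd83 (38.7 ± 8.08) and Cd37 (32.4 ± 2.86; SD, n = 3) led and overlapped, every library of both standing above Fcer2a, Ms4a1, Cd72, Cd55, Ccr7 and Cxcr5, whose mean levels ran from 12.7 down to 6.60 with overlap at each step. Cr2, at 3.41 ± 1.31 CPM per kilobase, was the lowest. The order was another one in DH-LMP2A: Cd37 (41.1), Ms4a1 (24.3), Cd83 (17.3), Cd55 (11.4) and Cr2 (7.48) followed each other without overlap between any of the first 4 and the next, and Cxcr5, Ccr7, Fcer2a and Cd72 overlapped from 3.70 down to 1.28 CPM per kilobase. In kFRA, Cd37 (26.7), Cd83 (18.5) and Ms4a1 (9.22) led in that order with overlap between Cd37 and Cd83 and between Cd83 and Ms4a1. Cd55 at 4.03 stood apart from Ms4a1 and from Cr2, and the 5 genes from Cr2 to Cd72 lay between 1.37 and 0.812 CPM per kilobase without a step beyond their spread. By group mean Cd72 was thus the lowest of the 9 in both DH-LMP2A and kFRA and stood among the middle genes in WT. Its libraries overlapped those of the next gene, Fcer2a in DH-LMP2A and Cxcr5 in kFRA.

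Ratios of genes within a library do not depend on its depth or scaling. Cd72 over Ms4a1 was 0.511 to 0.611 in the WT libraries, 0.0141 to 0.0460 in DH-LMP2A and 0.0306 to 0.104 in kFRA. Fcer2a over Cr2 was 0.714 to 1.35 in WT, 0.0300 to 0.162 in DH-LMP2A and 0.169 to 0.476 in kFRA. In both ratios no library of either group reached the WT range, and DH-LMP2A was the lower of the groups, with overlap for Cd72 over Ms4a1. Cd55 over Cd72 was 0.844 to 1.30 in WT, 7.69 to 25.5 in DH-LMP2A and 3.74 to 11.5 in kFRA, so every library of both groups was above WT and the groups overlapped. These ratios were chosen with the levels of the genes known and are a description.

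**Figure D3:**
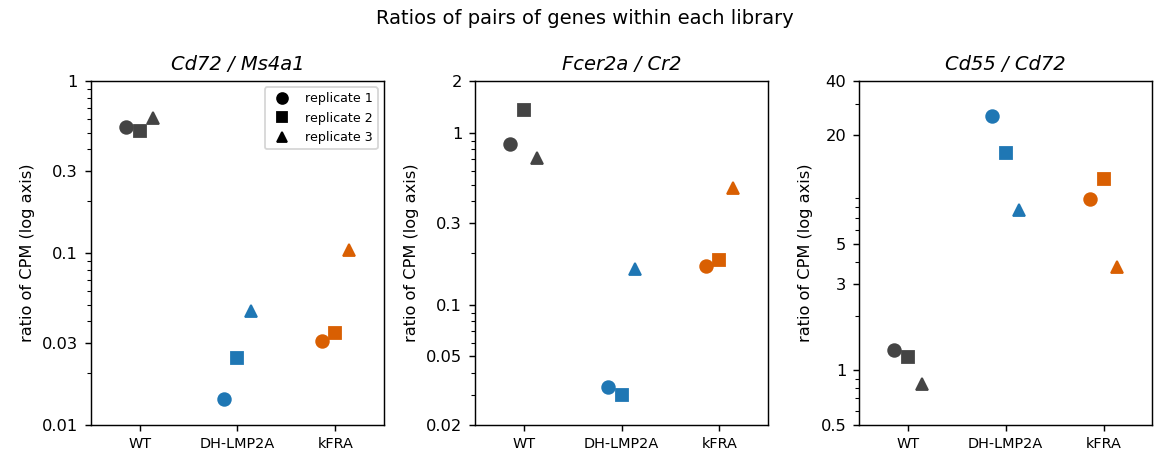
Ratios of CPM of 3 pairs of genes within each library, on log axes, by genotype and replicate. Cd72 over Ms4a1 and Fcer2a over Cr2 were highest in the WT libraries, whereas Cd55 over Cd72 was lowest there, at 0.844 to 1.30.

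DH-LMP2A replicate 3 changed some of the genes and not others. Relative to the mean of the other DH-LMP2A libraries it held 6.52 times the Fcer2a RNA, 5.01 times Ccr7, 4.05 times Cxcr5 and 3.04 times Cd72, but only 1.23 times Ms4a1, 1.27 times Cr2, 1.32 times Cd37 and 1.17 times Cd55, and 0.790 times Cd83. The B cell transcription factor gene Pax5 was at 3.23 times. The same library was at 13641 CPM in the sum of 8 erythroid genes, against 2566 and 2674 CPM, and at 1013 CPM in the sum of 8 macrophage and monocyte genes, against 2477 and 3108 CPM. Several T cell genes were also higher in it: Trac measured 9.84 CPM against 2.20 and 2.37, Cd3e 5.49 CPM against 1.14 and 1.21, Lck 16.7 CPM against 3.55 and 3.48 and Cd8a 9.38 CPM against 0.719 and 1.86, while Cd4 measured 19.2 CPM against 27.8 and 36.7, genes chosen after their values were seen. The part of these 3 kinds of cell in the receptor values was not tested. Without this library Fcer2a, Cxcr5 and Ccr7 joined Cd72 among the genes that fell in DH-LMP2A against WT, Ms4a1 was the only one of the 9 called higher (log2 fold change 1.10, adjusted p = 0.0419, edgeR), and the signs of Fcer2a, Cd72 and Ccr7 in kFRA against DH-LMP2A turned from negative to positive, none of them past the test. In kFRA against WT, leaving out kFRA replicate 2 kept all 6 calls and added Cd83. Without kFRA replicate 1 or WT replicate 2, Cd72 was the only one of the 9 called. Over all genes, the 6 fits that left out 1 library called 1271 to 5632 genes in this comparison, the most without kFRA replicate 2. With all libraries 948 genes were called higher and 1575 lower. The calls gained or lost are therefore not read as a result about the receptors.

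As a measure of B cell RNA that uses none of the 9 genes, the mean log2 CPM of 8 B cell reference genes, among them Cd22, Pax5, Spib and Fcrla, was 5.99, 6.24 and 5.48 in WT, 4.73, 4.83 and 5.88 in DH-LMP2A and 4.02, 4.52 and 4.52 in kFRA. The kFRA libraries lay below all WT libraries in it, and DH-LMP2A replicate 3 lay within the WT range, the other DH-LMP2A libraries below it. Of the 8 genes, 5 fell in kFRA against WT, 1 rose and 1 fell in DH-LMP2A against WT, and none was called in kFRA against DH-LMP2A (edgeR; 3 at an unadjusted p under 0.05 and 3 by DESeq2). Cd22, which encodes an inhibitory coreceptor, fell in both groups against WT (-3.60, adjusted p = 0.00434, and -2.78, adjusted p = 0.0136, edgeR), Pax5 and the B cell transcription factor gene Spib fell in kFRA (both -3.01, adjusted p = 0.0104 and 0.0107, edgeR), and Fcrla, an Fc receptor-like gene of B cells, rose in DH-LMP2A (1.19, adjusted p = 0.00411, edgeR).

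With this mean as a covariate, none of the 6 kFRA calls against WT passed the test, with 1 gene of the 9 at an unadjusted p under 0.05: Cd72 went from -3.69 to -1.81 (SE 0.47, adjusted p = 0.126, edgeR), Cr2 was at -0.34, Cd55 at -0.30 and Cxcr5 at -0.08, and Fcer2a and Ccr7 were at 0.62 and 0.55. Because the covariate itself separates kFRA from WT, genotype and covariate cannot be told apart in that comparison. In DH-LMP2A against WT the covariate overlaps only through DH-LMP2A replicate 3, since replicates 1 and 2, at 4.73 and 4.83, lay below all WT libraries. No fit with the covariate was made without replicate 3. With all libraries the same 3 genes were called as without the covariate: Ms4a1 at 1.42 (adjusted p = 0.0494, edgeR), Cr2 at 1.64 (adjusted p = 0.0233, edgeR) and Cd72 at -2.30 (adjusted p = 0.00418, edgeR). In kFRA against DH-LMP2A, Cr2 remained called at -1.98 (adjusted p = 0.0130, edgeR), and Ms4a1 at -1.16 and Cd55 at -1.13 did not (adjusted p = 0.215 and 0.176, edgeR). Taken per library as the difference of log2 CPM from the reference mean, kFRA was separate from WT in all libraries for Ms4a1 (kFRA minus WT 1.34), Cd37 (1.25), Cd72 (-2.14), Fcer2a (-1.59), Cxcr5 (-1.17) and Ccr7 (-0.87), each at an exact 2-sided permutation p of 0.1, the smallest that 3 against 3 libraries allow. Fcer2a and Ccr7 thus had the opposite sign to that in the covariate fit.

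**Figure D4:**
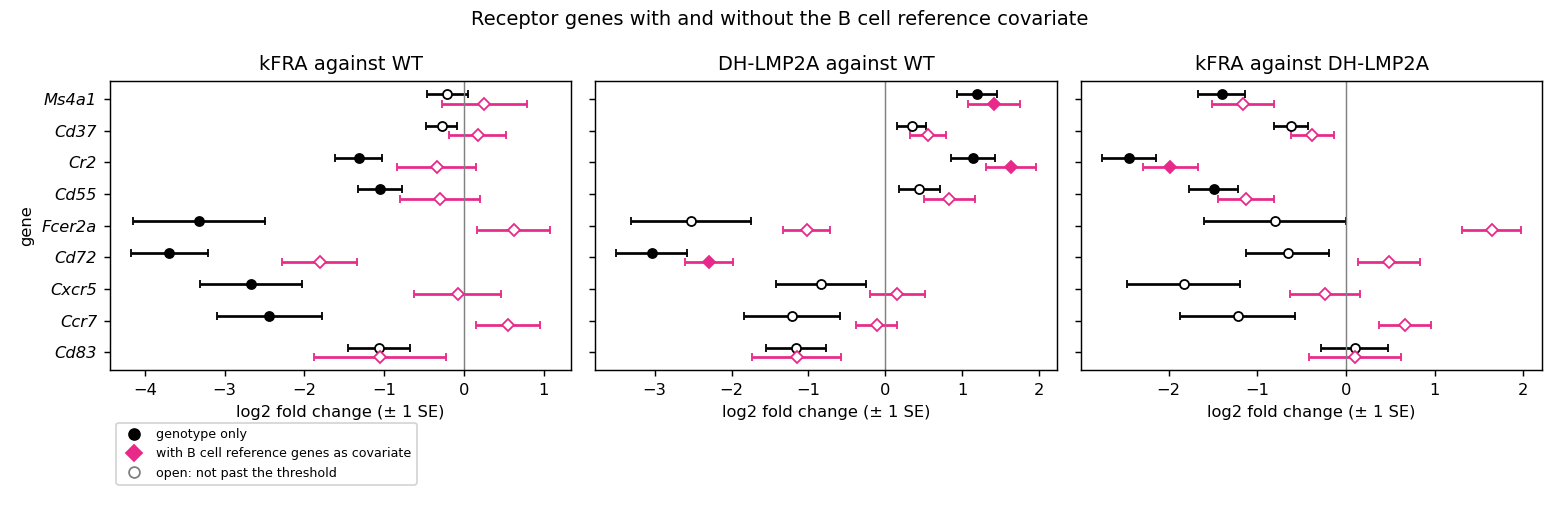
Log2 fold changes ± 1 SE of the 9 receptor genes without (black circles) and with (pink diamonds) the mean log2 CPM of 8 B cell reference genes as a covariate, filled where the adjusted p was under 0.05. In kFRA against WT no gene passed with the covariate, whereas in DH-LMP2A against WT Ms4a1, Cr2 and Cd72 passed with and without it.

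Lists of B cell subset genes, which hold some of these receptors, were read from the same fit. Of 8 follicular B cell genes, 4 of them among the 9 receptors (Fcer2a, Ccr7, Cxcr5 and Cd55), 7 fell in kFRA against WT, 1 rose and 1 fell in DH-LMP2A against WT, and 3 fell in kFRA against DH-LMP2A. Cd200, an inhibitory surface ligand on follicular B cells, had the same order of genotypes as Cr2, without overlap: it measured 19.1, 13.0 and 9.62 CPM in WT, 56.5, 57.7 and 75.2 CPM in DH-LMP2A and 1.23, 1.76 and 4.20 CPM in kFRA, and edgeR's adjusted p was 0.00367 for kFRA and 0.00575 for DH-LMP2A against WT. Il4ra, the interleukin-4 receptor chain, fell in both groups against WT as Cd72 did (-1.92 and -1.71, adjusted p = 0.00139 and 0.00307, edgeR). Of 8 marginal zone B cell genes, among them Cr2, 4 fell in kFRA against WT, whereas in DH-LMP2A against WT 1, Cr2 itself, rose and 2, Myof and Asb2, fell, and in kFRA against DH-LMP2A 1, again Cr2, fell.

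Of 24 other B cell surface genes, 1 rose and 9 fell in kFRA against WT, 4 rose and 4 fell in DH-LMP2A against WT, and 6 fell and none rose in kFRA against DH-LMP2A. Their median log2 fold changes were -0.78, -0.11 and -0.34 in that order, against -1.32, -0.84 and -1.22 for the 9 receptors. Cd24a, a small surface glycoprotein gene, rose in both groups against WT (1.61 and 1.81, adjusted p = 0.00082 and 0.000574, edgeR). Cd79a, which encodes a signalling chain of the B cell receptor, rose in DH-LMP2A against WT (1.19, adjusted p = 0.0145, edgeR), and its partner Cd79b was called in no comparison.

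Markers of other spleen cells that can carry some of these receptors were read as well. The summed level of 8 dendritic cell genes, a cell type that carries Ccr7 and Cd83, was 61.3 to 98.5 CPM in WT, 22.9 to 47.2 CPM in DH-LMP2A and 37.6 to 46.8 CPM in kFRA, with 1 of 7 tested genes rising and 1 falling in kFRA against WT and 2 falling in DH-LMP2A against WT (1 rising and 1 falling under scaling by library size alone). Itgax made up most of this sum, with means of 60.2 CPM in WT, 23.0 CPM in DH-LMP2A and 27.4 CPM in kFRA. The gene that rose in kFRA was Siglech, with means of 0.89 CPM in WT and 7.30 CPM in kFRA, and the gene that fell was Clec9a, with 4.05 and 0.28 CPM. The sum of 8 follicular dendritic and stromal cell genes, which stand for a Cr2-expressing cell type, was 10.6 to 20.96 CPM over all 9 libraries, and none of 6 tested genes was called by edgeR in any comparison, with 1 at an unadjusted p under 0.05, in DH-LMP2A against WT, where DESeq2 called 1. T cell genes, markers of cells that carry Ccr7 and in part Cxcr5, summed to 91.6 to 152 CPM in WT, 106 to 156 CPM in DH-LMP2A and 78.6 to 97.2 CPM in kFRA, and 0 of 8 were called in kFRA against WT by edgeR or DESeq2 or passed an unadjusted p of 0.05 in edgeR. Of these 8, Cd28, a costimulatory receptor gene that plasma cells also express, rose in DH-LMP2A against WT (0.58, adjusted p = 0.0128, edgeR) and fell in kFRA against DH-LMP2A (-0.63, adjusted p = 0.0174, edgeR), and it and Cd4 made up most of the sum. The 8 macrophage and monocyte genes summed to 3150 to 5699 CPM in WT, 1013 to 3108 CPM in DH-LMP2A and 1833 to 3121 CPM in kFRA, with 2 falling in kFRA and 1 in DH-LMP2A against WT. No gene of these 4 lists was at 0 in all 3 libraries of a genotype. The part of these cells in the receptor values was not tested.

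The genes whose log2 CPM ran most like the mean log2 CPM of the 9 receptors, among 9625 genes with a mean of at least 5 CPM, were Pax5 (Pearson r 0.98), Zfp831 (0.98), Gm4759 (0.98), Cnr2 (0.97) and Trib2 (0.97), over 9 libraries that share their genotypes in 3 groups. Pax5, the factor that sets B cell identity, measured 64.3, 78.8 and 30.5 CPM in WT, 13.9, 12.9 and 43.4 CPM in DH-LMP2A and 2.94, 9.80 and 8.59 CPM in kFRA. DH-LMP2A replicate 3 was thus above WT replicate 3 in Pax5, as it was in all of the receptor genes but Cd72 and Cd83. In Pax5, Fcer2a, Cxcr5 and Ccr7 the other DH-LMP2A libraries lay below WT replicate 3. In Ms4a1, Cr2, Cd37 and Cd55 they lay above it. The 9 receptors did not all run alike. Pearson r between 2 of them went from -0.29 for Cd37 with Cd83 to 0.97 for Cr2 with Cd55. Ms4a1 with Cd72 was at -0.22, so a likeness to the mean is not a likeness to each gene. These likenesses are a description over few libraries.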

How the data were processed

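RNA of spleen CD138-positive plasma cells was sequenced from 9 mice, 3 per genotype, as stranded paired-end libraries per the labels' protocols. The authors deposited raw counts per gene, not normalized; per the submitters' processing notes STAR 2.4.0a, featureCounts (Subread 1.5.0-p3) and DESeq2 were used with mm10/GRCm38, without a stated role or strand setting. Of 44038 genes with a single GENCODE M21 entry, 84.5% had an identical span, so the table's coordinates were read as GRCm38. Total counts were 15449026 to 21558128, and floors of 3 counts cover counting error only, since reads are not independent molecules.

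Counts were fitted with edgeR 4.0.16 in R 4.3.3: filterByExpr within genotypes (14199 genes), TMM scaling, 1 coefficient per genotype over all 9 libraries, 2-sided quasi-likelihood F tests and Benjamini-Hochberg adjustment over all genes, threshold 0.05. CPM are TMM-scaled, and log2 CPM used a prior count of 2. The SE is the log2 fold change divided by the square root of F. The fit was tested on simulated data for kFRA against WT over 14199 genes, where it recovered 38 of 100 changes of 2-fold and 92 of 100 of 4-fold, so a change near 2-fold can miss the threshold. No replicate pair agreed within sampling noise (chi-square per degree of freedom 18.8 to 179). Tables and figures were made with Python 3.11.15.

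The 9 genes and all lists were chosen with earlier results of these data known. All 9 genes are named, and of each other list at most 4 genes with the smallest p-value, plus defining genes such as Cd79a and Sdc1 and the 5 genes most like the mean of the 9. Overlapping genes were named to describe shared exons, and Ighm to describe the genotypes. Some genes of the lists are counted but not reported here by name.

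Alternatives were DESeq2 size factors, library size alone, no filter or a mean of at least 5 CPM, no immunoglobulin genes, a replicate block, covariates of B cell reference genes and of Xist, only the 6 libraries compared, DESeq2 1.42.0, and leaving out each library. Leaving out kFRA replicate 2 and DH-LMP2A replicate 3 together was added after seeing the data.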

Additional observations from a re-analysis of the deposited data

How the results depend on the processing

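Of 459 values of the 9 genes under the alternatives, 379 kept direction and side of the threshold, 38 fell short of it, 23 newly passed it and 19 turned. Cd72 in DH-LMP2A against WT and Cr2 in kFRA against DH-LMP2A kept their calls in all 17, and Cd72 in kFRA against WT in 16. The cause of the changes was not tested.

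Leaving out 1 library gave 1271 to 5632 genes and 1 to 7 of the 9 called in kFRA against WT (2523 and 6 with all libraries), 932 to 1408 and 1 to 5 in DH-LMP2A against WT (1756 and 3), and 352 to 3299 and 2 to 3 in kFRA against DH-LMP2A (713 and 3). The highest counts for kFRA came without kFRA replicate 2, where by Xist and Ddx3y kFRA held a single sex. Without that library and DH-LMP2A replicate 3, 5885 and 2815 genes were called in the kFRA comparisons and 6 of the 9 in DH-LMP2A against WT. For DH-LMP2A against WT in that fit the share of all genes called is not given. The count of 6 is therefore not read as a result about the receptors.

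With the B cell reference covariate, 325 genes and 0 of the 9 were called in kFRA against WT, 805 genes in DH-LMP2A against WT, and 262 genes and 1 of the 9 in kFRA against DH-LMP2A. In DH-LMP2A against WT, 5 of the 9 were called without a filter, with the Xist covariate and by DESeq2's Wald test. The shares of all genes called in those settings are not given, so these counts are not read as a result about the receptors. In the same comparison a mean of at least 5 CPM left 1094 genes called. DESeq2's Wald test called 1405 genes in kFRA against DH-LMP2A.

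Library size alone moved the median log2 fold change of all genes from -0.04 to 0.17 in kFRA against WT, from -0.01 to 0.33 in DH-LMP2A against WT and from 0.00 to -0.14 in kFRA against DH-LMP2A, and relative to that shift the 9 genes are read. The calls divided into 2363 higher and 917 lower (main 948 and 1575) in the first, and 2053 and 518 (main 720 and 1036) in the second. Of the 9, 4, 4 and 3 were called.

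Direction turned for Ms4a1 in kFRA against WT with library size alone (0.00329) and the covariate (0.25), and ran from -0.39 to 0.0260 when 1 library was left out (positive without kFRA replicate 3, at 0.00703, or WT replicate 2). With the covariate it turned in kFRA against WT for Fcer2a (0.62), Cd37 (0.18) and Ccr7 (0.55), in DH-LMP2A against WT for Cxcr5 (0.16), and in kFRA against DH-LMP2A for Fcer2a (1.65), Cd72 (0.49) and Ccr7 (0.67). In kFRA against DH-LMP2A, leaving out 1 library gave -1.22 to 0.74 for Fcer2a, -1.03 to 0.13 for Cd72 and -1.53 to 0.0401 for Ccr7, positive without DH-LMP2A replicate 3, and -0.45 to 0.44 for Cd83, negative without kFRA replicate 2. Without both libraries Fcer2a (0.86), Cd72 (0.32) and Cd83 (-0.56) turned.

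The replicate numbers did not pair the mice: deviations of same-numbered libraries correlated at -0.21 to 0.20, and not every library correlated best with its own number. With the replicate number as a block, 2930, 2067 and 685 genes and 7, 4 and 3 of the 9 were called in the order above, and Cd83 in kFRA against DH-LMP2A was at -0.0333.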

Other observations

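Of 14 other tetraspanin and Ms4a genes, 1 rose and 6 fell in kFRA against WT, 4 fell in DH-LMP2A against WT and none was called in kFRA against DH-LMP2A by edgeR's quasi-likelihood test (4 at an unadjusted p under 0.05 and 2 by DESeq2). Ms4a4c fell in both groups against WT, with log2 fold changes of -3.83 and -3.09 (adjusted p = 0.00119 and 0.00326, edgeR), as did Ms4a6c (-2.59 and -2.55, adjusted p = 0.00282 and 0.00345, edgeR) and Ms4a7 (-1.97 and -2.73, adjusted p = 0.0196 and 0.00629, edgeR), while Ms4a1 rose in DH-LMP2A. Ms4a6c and Ms4a7 are genes that macrophages also express, and summed macrophage and monocyte genes were highest in WT. The tetraspanin gene Cd53 fell in kFRA against WT (-0.72, adjusted p = 0.0125, edgeR), a comparison in which Cd37 was at -0.28 and did not pass the test. Cd81 was called in no comparison.

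Of 6 tested germinal centre B cell genes, 4 fell in kFRA and 3 in DH-LMP2A against WT. Fas, a death receptor gene of germinal centre cells, fell in both (-1.99 and -2.09, adjusted p = 0.00399 and 0.00345, edgeR), as did Bcl6, their central repressor gene (-2.06 and -1.61, adjusted p = 0.00476 and 0.0153, edgeR). Of 8 B-1 cell genes, 3 fell in kFRA and 2 in DH-LMP2A against WT, Apoe and Itgam, which macrophages also express, among those in kFRA. Of 8 plasma cell genes, 2 rose and 1 fell in kFRA against WT and 3 rose and 1 fell in DH-LMP2A against WT. Mzb1, which encodes a chaperone of antibody assembly, rose in both (1.22 and 1.80, adjusted p = 0.0107 and 0.00210, edgeR), and Tnfrsf17, which encodes the survival receptor BCMA, fell in both (-1.69 and -1.16, adjusted p = 0.00253 and 0.0159, edgeR). Summed granulocyte genes were at 429 to 1181 CPM in WT, 33.0 to 315 CPM in DH-LMP2A and 21.6 to 37.8 CPM in kFRA, with 3 of 7 tested genes falling in kFRA and 1 rising in DH-LMP2A against WT. Of 8 erythroid genes, 5 rose in each group against WT.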
